A study of Mus musculus with 20 samples.

Results

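The change with age in colonic stem cells of SPF mice was read from 4 samples, 2 at 15 weeks and 2 at 3 weeks, out of 20 in the whole series. The samples were picked by their labels (SPF, stem fraction, age), and the change was followed over all 1195 regions of the single deposited table of differentially methylated regions. DNA methylation had been measured by whole-genome bisulfite sequencing, and each value is the methylation fraction of a region in a sample, from 0 (no methylated cytosine) to 1 (all methylated). All mice were C57BL/6J and carried Lgr5EGFP-IRES-CreERT2, a knock-in allele at the stem cell gene Lgr5 that drives green fluorescent protein and an inducible Cre. No inducing agent is given in the labels. The 15-week SPF stem samples were compared with the 3-week SPF stem samples, and this change was set beside that of GF stem cells (4 samples at 15 weeks, 2 at 3 weeks) and of SPF differentiated cells (2 and 2). SPF is read here as specific-pathogen-free and GF as germ-free. In each SPF group replicate 1 was male and replicate 2 female. How the stem and differentiated cells were separated, and whether a sample holds 1 animal or a pool, is not given in the sources read here.

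Methyl groups on the cytosine of CpG dinucleotides are copied at each cell division by maintenance enzymes and can be lost when they are not copied or when they are removed by oxidation. Regulatory elements such as enhancers tend to be poorly methylated where they are in use. Colonic stem cells sit at the base of the crypt and renew the whole epithelium, so that marks they keep can be passed on to the differentiated cells above. Mice are weaned at about the earlier of the ages sampled, when the diet and the gut microbiota change.

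The regions bear on what can be read from a loss. Every difference in the authors' deposited table is negative, and its header does not name the groups behind it. It is assumed here that the regions were selected as lower in SPF than in GF stem cells at 15 weeks, so the counts of regions lower at 15 weeks below are not independent of that choice. The 15-week SPF identifiers all end in Co and the 3-week ones do not, so age and that ending cannot be told apart. Read depth per fraction is unknown. A check of the stem label against expressed markers could not be made from methylation of a chosen set of regions: 4 of the 22 stem marker genes listed (Cdca7, Axin2, Cd44 and Prom1) have a region here, and Lgr5 has none.

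Of the regions, 4 contain a whole promoter window of a protein-coding gene as listed by RefSeq on GRCm38.p6 (250 bases before to 50 bases after a transcription start), the same build as mm10. Their sequences are shown because here the measured region contains the whole window. A fraction is 1 value for its region, which holds 18 (Ifitm3), 10 (Apobec3), 14 (Tmem252) or 19 (Ptprj) CpGs by the deposited count. Most of these lie outside the window, and no value per CpG is given. Each is written 5′ to 3′ along the gene's strand, and the capitals mark its CpG dinucleotides. The windows are Ifitm3 (chr7:141010695-141010994, minus strand), Apobec3 (chr15:79894773-79895072, plus strand), Tmem252 (chr19:24673758-24674057, plus strand) and Ptprj (chr2:90479125-90479424, minus strand). For Apobec3 and Ptprj the window belongs to 1 of 2 listed starts, one that lies inside the gene.
Ifitm3: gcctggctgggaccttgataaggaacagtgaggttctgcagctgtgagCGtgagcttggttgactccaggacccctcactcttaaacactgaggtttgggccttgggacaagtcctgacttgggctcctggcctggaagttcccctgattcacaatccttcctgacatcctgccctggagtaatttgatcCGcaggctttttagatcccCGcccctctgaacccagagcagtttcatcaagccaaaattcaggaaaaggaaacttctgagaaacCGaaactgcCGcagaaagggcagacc
Apobec3: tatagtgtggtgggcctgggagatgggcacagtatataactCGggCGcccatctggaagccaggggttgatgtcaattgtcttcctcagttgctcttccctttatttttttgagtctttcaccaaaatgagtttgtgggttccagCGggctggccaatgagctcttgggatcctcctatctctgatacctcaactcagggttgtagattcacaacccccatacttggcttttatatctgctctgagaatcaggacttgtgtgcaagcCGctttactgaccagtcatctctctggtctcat
Tmem252: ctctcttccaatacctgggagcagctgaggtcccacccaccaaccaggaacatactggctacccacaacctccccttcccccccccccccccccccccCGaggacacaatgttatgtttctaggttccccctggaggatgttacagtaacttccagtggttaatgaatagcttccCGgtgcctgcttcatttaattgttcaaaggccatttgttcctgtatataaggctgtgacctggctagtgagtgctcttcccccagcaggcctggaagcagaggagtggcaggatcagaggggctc
Ptprj: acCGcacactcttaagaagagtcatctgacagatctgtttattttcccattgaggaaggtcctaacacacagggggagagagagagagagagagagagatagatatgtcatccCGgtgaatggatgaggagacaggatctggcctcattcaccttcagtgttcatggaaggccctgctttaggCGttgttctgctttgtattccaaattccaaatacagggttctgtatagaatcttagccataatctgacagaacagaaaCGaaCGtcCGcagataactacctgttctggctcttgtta

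The windows hold 5 (Ifitm3), 4 (Apobec3), 2 (Tmem252) and 6 (Ptprj) CpGs, against a median of 7 over all 32851 RefSeq promoter windows. The interferon-stimulated element, searched on both strands like all motifs here, occurs in the Ifitm3 window at 3 and 20 bases past the start, and the element at 20 bases, read as gaaacCGaaa, contains a CpG. That motif is in 3.44% of all promoter windows. The Ifitm3 window also has a STAT match (TTCNNNGAA, in 8.30% of windows), which overlaps the element at 20 bases, an NF-kB match (in 20.7%) and an AP-1 match (TGANTCA, in 7.81%). Apobec3 has an NF-kB match and Ptprj a STAT match, and Tmem252 has none of these. The letters CAAAGTCCA (HNF4, in 0.475% of windows), TTTATNG (CDX, in 10.9%) and CTTTGAT (TCF/LEF, in 3.73%) are in none of the 4 windows. A match describes letters and not a bound site.

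Methylation was lower at 15 weeks in the regions that contain 3 of these windows. Of all regions, 69.5% were lower by limma at an adjusted p under 0.05. Whether the regions with a window differ from the rest was not tested. The region over Ifitm3, which encodes an interferon-induced membrane protein that blocks virus entry, stood at 0.105 and 0.0882 in the 15-week samples, against 0.376 and 0.408 in the 3-week samples. The region over the internal Apobec3 start stood at 0.418 and 0.428 at 15 weeks, against 0.885 and 0.862 at 3 weeks. Both 15-week samples were below both 3-week samples at each, as at 84.1% of all regions. Apobec3 encodes a cytidine deaminase that restricts retroviruses. At Tmem252, a transmembrane protein gene, the values were 0.0432 and 0.0236 at 15 weeks and 0.287 and 0.20 at 3 weeks. The differences were -0.295 ± 0.060 (Ifitm3, adjusted p = 0.00028), -0.451 ± 0.066 (Apobec3, adjusted p = 1e-05) and -0.210 ± 0.049 (Tmem252, adjusted p = 0.00085), each ± the limma standard error (SE). At the internal start of Ptprj, a receptor tyrosine phosphatase, the values were 0.440 and 0.462 at 15 weeks, against 0.468 and 0.587 at 3 weeks. That difference did not pass the threshold (-0.077 ± 0.049, adjusted p = 0.17).

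Over the table as a whole, SPF stem cells had less methylation at 15 than at 3 weeks at most regions, a few regions stayed level and very few rose. The mean over the 1195 regions was 0.360 and 0.348 in the 15-week samples, against 0.574 and 0.569 in the 3-week samples, a difference of -0.217. The exact two-sided permutation p was 0.333, the smallest that 2 against 2 samples allow. Limma, fitted to all 20 samples with Benjamini-Hochberg adjustment and a threshold of 0.05, called 831 regions lower at 15 weeks (69.5% of 1195) and 12 higher (1%). Without adjustment, a p under 0.05 was reached by 853 lower and 16 higher regions. A further 53 regions (4.44%) changed little, meaning that the 95% confidence interval of the difference lay within 0.15 on either side of 0. The remaining 299 met none of these. Both 15-week samples lay below both 3-week samples at 1005 regions and above them at 54, and at 136 the ages overlapped. The replicates of an age differed by a mean of 0.0537 per region at 15 weeks and 0.0611 at 3 weeks, well under the typical loss.

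Most losses were partial. The median of the 831 lower regions was 0.333 at 15 weeks and 0.655 at 3 weeks, and a region kept a median of 53.6% of its 3-week level (quartiles 39.7% and 66.5%). At 67 of them less than 25% was kept and 40 ended under 0.1, while 169 still had more than 0.5. The loss was at least 0.5 at 52 regions, between 0.3 and 0.5 at 298 and smaller at 481. All but 1 of the 831, called on these same values, had the 15-week samples wholly below the 3-week samples, as did 84.1% of all regions.

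**Figure D1:**
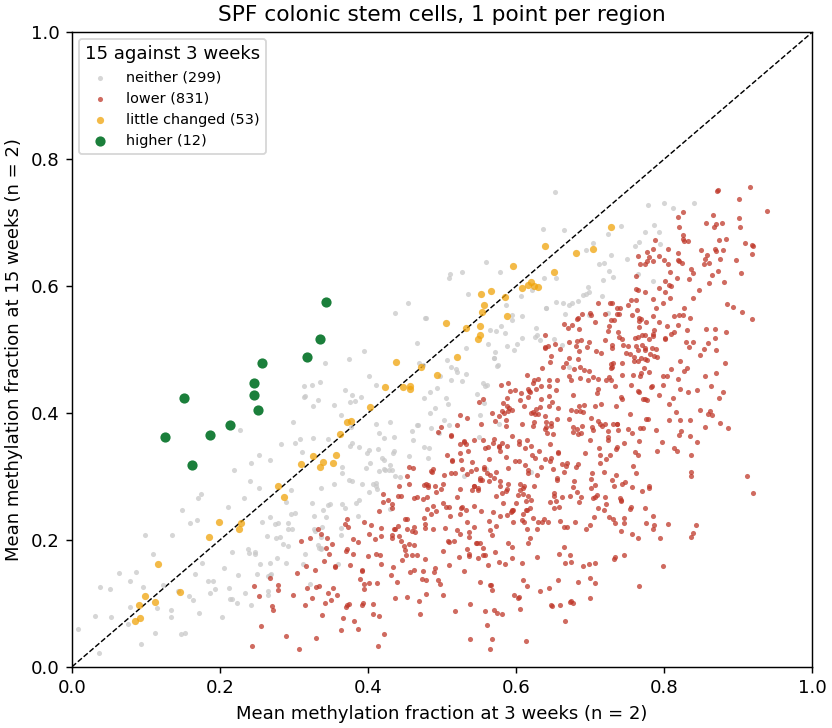
Mean methylation fraction of each of the 1195 regions in SPF stem cells at 15 weeks (vertical axis) against 3 weeks (horizontal axis), coloured by class, with the dashed line where both are equal. Most points lie below the line, the 53 little changed regions lie along it, and the 12 that rose all had a 3-week mean of 0.343 or lower.

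The loss was larger where methylation had been high at 3 weeks. Of 131 regions above 0.8 at 3 weeks, 98.5% were called lower, with a median change of -0.280. Of 457 regions between 0.6 and 0.8 the share was 86.0% (median -0.278), of 362 between 0.4 and 0.6 it was 68.2% (median -0.209), and of 194 between 0.2 and 0.4 it was 32% (median -0.104). None of the 51 regions under 0.2 was called lower, and their median change was 0.013. A low region has little to lose, and the 3-week value enters both quantities. For the shared value, the regions were also grouped by their level in 3-week GF stem cells, which the difference does not use. The shares called lower were then 91.2%, 81.6%, 63.9%, 29.9% and 2.86% over the same ranges, in the same high to low order. GF medians at 3 weeks rose from 0.173 in the lowest SPF range to 0.854 in the highest. This grouping therefore does not remove the limit that low regions have little to lose. Across regions the 15-week level still followed the 3-week level (Spearman's rho 0.614 over 1195 regions, which share libraries and are not independent replicates).

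By position, every kind of element annotated in the table had regions that were lower. Of 421 regions in distal enhancer-like elements, 71.3% were lower, as were 69.0% of 116 in proximal enhancer-like elements and 69.4% of 607 in no listed element, beside 69.5% in the whole table. The small classes had 13 lower of 21 (DNase-H3K4me3, 61.9%) and 6 of 6 (CTCF-only, 100%). Promoter-like elements had 11 lower of 24 (45.8%), with a median change of -0.152 against -0.215 for all regions. The 12 regions that rose comprised 6 in distal and 1 in proximal enhancer-like elements, 1 in an element of the DNase-H3K4me3 class and 4 in none. On the autosomes the share of lower regions ran from 57.4% (chromosome 19) to 87.5% (chromosome 14). CpG density was much alike in the lower regions (median 2.03 CpGs per 100 bp), the higher ones (2.22) and the little changed ones (2.01).

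The largest losses named a mixed group of genes, and the leading pair lay in a non-coding gene. The region chr6:31127203-31128017, a distal enhancer-like element, stood at 0.290 and 0.259 in the 15-week samples, against 0.919 and 0.921 in the 3-week samples. Its neighbour chr6:31122598-31124754 stood at 0.162 and 0.156, against 0.786 and 0.811. The table gives these no gene, but both lie inside RefSeq Lncpint, a long non-coding RNA gene induced by p53. The differences were -0.645 ± 0.043 and -0.639 ± 0.042 (adjusted p = 2.1e-09 for both).

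Irf1, which encodes an interferon regulatory transcription factor, had the largest loss of any gene the table names. Its region chr11:53773336-53774766 stood at 0.207 and 0.201 at 15 weeks, against 0.841 and 0.831 at 3 weeks, a difference of -0.632 ± 0.046 (adjusted p = 3.6e-09). The region chr7:100184383-100184893 at Kcne3, a potassium channel subunit used in chloride secretion by colonic crypts, stood at 0.249 and 0.172, against 0.873 and 0.805. Eml2, a microtubule-binding protein, stood at 0.225 and 0.222 at 15 weeks, against 0.853 and 0.832. At Hsd17b4, whose product oxidises fatty acids in peroxisomes, the values were 0.297 and 0.304, against 0.909 and 0.915. In all of these the samples of an age lay close together and far from those of the other age.

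Some losses of this size left little methylation. Cnn3, an actin-binding calponin, stood at 0.0919 and 0.0518 at 15 weeks, against 0.603 and 0.728 at 3 weeks. Ptprt, a receptor tyrosine phosphatase, stood at 0.0866 and 0.114, against 0.648 and 0.705. The region chr2:163094399-163094812, 4.8 kb from Gtsf1l and 9.7 kb from the cell cycle transcription factor gene Mybl2, stood at 0.0915 and 0.164, against 0.787 and 0.744. Each of these kept under 25% of its 3-week level. Dlgap1, a synaptic scaffold gene, ended higher, at 0.172 and 0.232, against 0.872 and 0.718, and Tmc5, of the transmembrane channel-like family, at 0.231 and 0.218, against 0.806 and 0.805. Adjusted p for the 12 largest losses lay between 2.1e-09 and 2.9e-06.

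**Figure D2:**
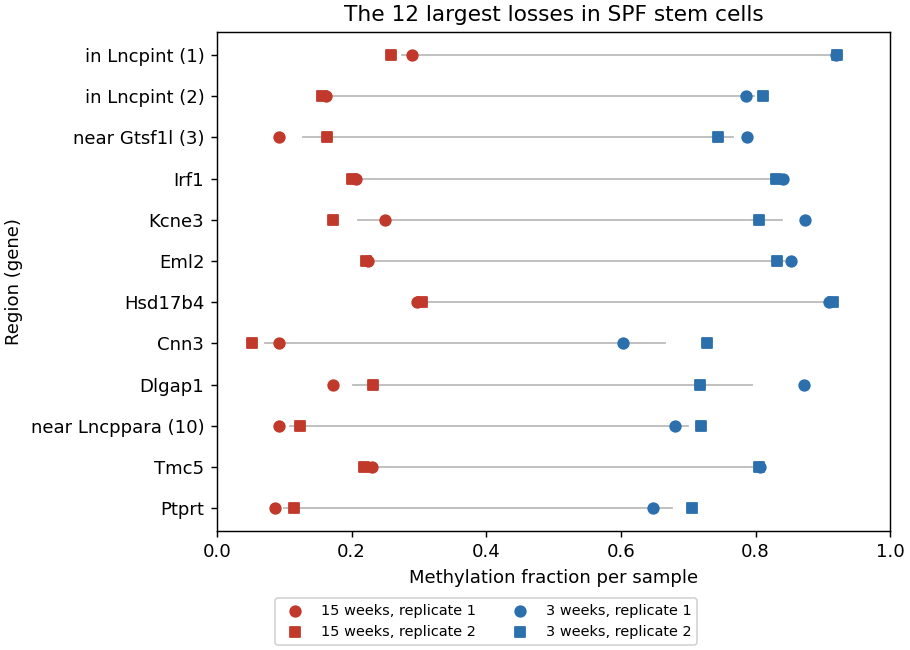
Methylation fraction in each SPF stem sample for the 12 regions with the largest losses (1 per gene that the table names), with 15-week samples in red, 3-week samples in blue, circles for replicate 1, squares for replicate 2 and a grey line between the age means. For regions without a gene in the table the nearest RefSeq gene is written with the rank in brackets, and at every region the 15-week samples lie at 0.304 or lower and the 3-week samples at 0.603 or higher.

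Some regions lay close to each other. Regions no more than 25 kb apart formed 12 groups of 4 or more, which hold 56 regions, 47 of them lower and none higher, beside 69.5% lower and 1% higher in the whole table. Whether losses cluster was not tested. The Lncpint group spans 53.8 kb and has 7 regions, 6 of them lower. Averaged over its regions it stood at 0.350 and 0.284 at 15 weeks, against 0.721 and 0.70 at 3 weeks. Its changes ran from -0.645 to -0.145. Another group, 17.9 kb long on chromosome 15 (chr15:85664347-85682236), has 5 regions, all lower by -0.592 to -0.497. It stood at 0.176 and 0.166 at 15 weeks, against 0.715 and 0.734 at 3 weeks, which is the lowest 15-week mean of the 12 groups. This group lies in no RefSeq gene. From its region chr15:85679995-85680753 it is 23 kb to the non-coding gene Lncppara and 25.9 kb to the let-7 microRNA gene Mirlet7c-2.

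Further groups took in named genes, though not every region of a group lies at the gene named. Around the MHC class II genes H2-Ab1 and H2-Aa, which encode chains of the molecule that presents extracellular antigen, 3 of 4 regions were lower, and the region chr17:34265344-34265719 at H2-Ab1 did not follow. It stood at 0.426 and 0.408 at 15 weeks, against 0.399 and 0.352 at 3 weeks (0.042 ± 0.069, adjusted p = 0.6) beside a region that was lower by -0.255. In the group around Plet1, an epithelial progenitor gene, all 4 regions were lower, to 0.302 and 0.278 on average at 15 weeks, against 0.558 and 0.571. All 4 regions were also lower in the group at Frmd4b, a scaffold with a FERM domain (0.192 and 0.186 at 15 weeks, against 0.627 and 0.592). The same held around the ubiquitin ligase gene Rnf145 (0.291 and 0.284, against 0.624 and 0.614) and Cd177 with Ceacam10 (0.377 and 0.245, against 0.635 and 0.651). It also held around the cell surface mucin gene Muc13 (0.360 and 0.307, against 0.594 and 0.604). There, chr16:33777582-33778522 and chr16:33779031-33780035 lie 15.5 and 14.0 kb from Muc13. Other groups were lower in part: 3 of 4 regions at Sh3bp4, 5 of 7 at Aopep, 2 of 4 at Pla2g5 and 3 of 5 at chr17:29394189-29398781. The share in the whole table was 69.5%.

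**Figure D3:**
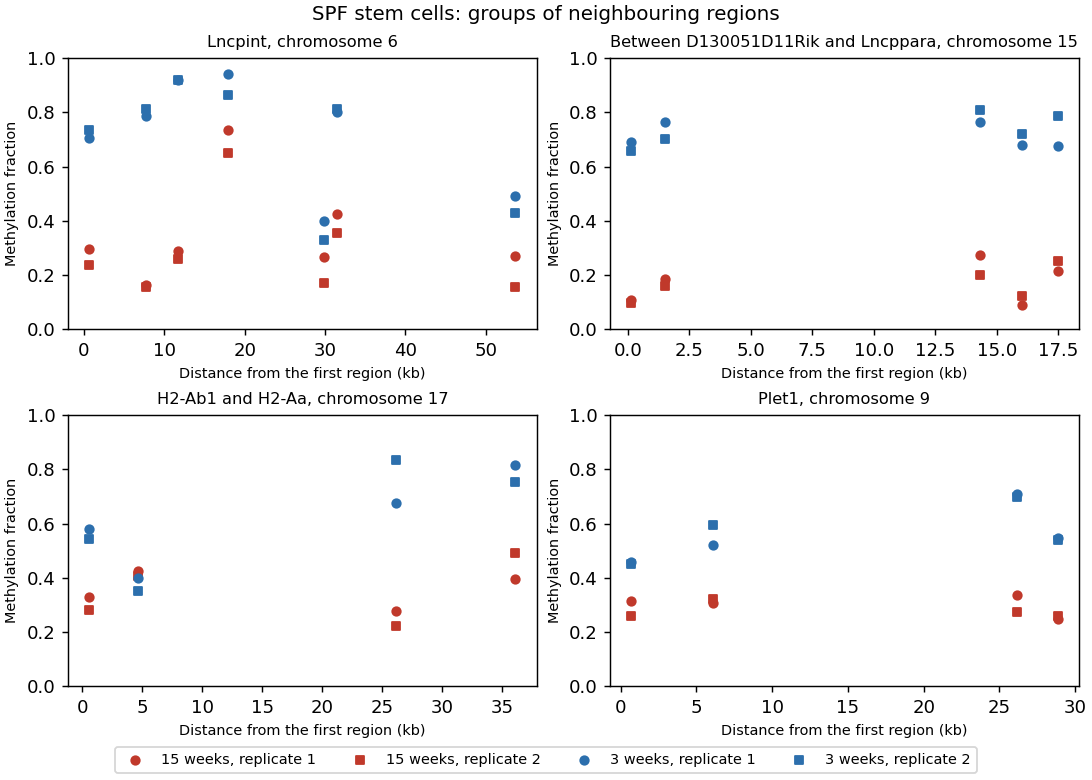
Methylation fraction in each SPF stem sample (15 weeks red, 3 weeks blue, circles replicate 1, squares replicate 2) along 4 groups of neighbouring regions, by distance from the first region in kb. The ages are far apart over the whole chromosome 15 group, while at 1 region of the H2-Ab1 and H2-Aa group and 1 of the Lncpint group they come close.

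At genes with 4 or more regions the number of lower regions varied, beside 69.5% in the whole table. Frmd4b had all 5 regions lower, by -0.503 to -0.224. Aopep, an aminopeptidase gene, had 5 of 8 lower, and its region chr13:63279339-63279723, already at 0.126 and 0.166 at 3 weeks, was little changed at 0.133 and 0.103 at 15 weeks. Pla2g5, a secreted phospholipase, ranged over 19.9 kb from a loss of -0.471 ± 0.048 at chr4:138834440-138836160 (0.363 and 0.363 at 15 weeks, against 0.837 and 0.832) to a little changed region at chr4:138816285-138816890 (0.565 and 0.517, against 0.527 and 0.483). Eps8, an actin-capping protein of microvilli, had 2 of 5 regions lower, the largest by -0.342 and the other not called without replicate 1 at 3 weeks (adjusted p = 0.055). Ptprj had 1 of 4 lower. The gene model Gm20388 has 11 regions on chromosome 8, of which 6 were lower and 1 higher, and several of these also belong to a gene inside it such as Irf8, so they are not 11 readings of a single gene.

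The regions at genes of immune function were nearly all lower. The gene lists were chosen with earlier results of these data known, and 69.5% of all regions were lower with a median change of -0.215, so each count is given against that. Most regions on the interferon and MHC class II lists started above 0.6 at 3 weeks. Of all regions between 0.6 and 0.8 at 3 weeks 86.0% were lower (median -0.278), and above 0.8 98.5% were. Whether the lists differ from other regions of like 3-week level was not tested. The interferon response list had 12 of 13 regions lower, with a median of -0.299. Ifi47, an interferon-inducible GTPase gene (region shared with Olfr56), stood at 0.0299 and 0.0509 at 15 weeks, against 0.660 and 0.568 at 3 weeks. Irgm2, of the same family, stood at 0.238 and 0.219, against 0.722 and 0.637. Irf8, a transcription factor, stood at 0.514 and 0.468, against 0.858 and 0.839.

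The list of MHC class II and antigen presentation had 9 of 10 regions lower, with a median of -0.301. Besides H2-Aa and Ciita, the master activator of class II genes (-0.570 ± 0.041, adjusted p = 3.6e-09), it included B2m, the light chain of MHC class I (region shared with Patl2), at 0.290 and 0.204 at 15 weeks, against 0.707 and 0.730 at 3 weeks. Cd74, the class II invariant chain, was at 0.463 and 0.495, against 0.891 and 0.873. The immunoproteasome subunit genes Psmb8 and Psmb9 were lower by -0.348 and -0.137. Of microbial sensing and NF-kB genes all 6 regions were lower (median -0.273), among them Tnip1, an inhibitor of NF-kB signalling, at 0.221 and 0.196, against 0.750 and 0.764, and Nfkb1, an NF-kB subunit, at 0.335 and 0.321, against 0.751 and 0.692. Of epithelial immune effectors 4 of 5 were lower (median -0.215), with Duoxa2, which brings an oxidase to the cell surface, at 0.381 and 0.250, against 0.765 and 0.751, and Pigr, the transporter of secretory IgA, at 0.275 and 0.286, against 0.601 and 0.575.

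Genes of stem cell and epithelial identity are given against the same 69.5%. The stem marker list had 4 of 5 regions lower (median -0.322). Cdca7, a chromatin remodelling factor also on the list of DNA methylation machinery, stood at 0.0400 and 0.0462 at 15 weeks, against 0.605 and 0.530 at 3 weeks. At Cd44, an adhesion receptor of crypt base cells, a proximal enhancer-like region was lower (0.376 and 0.466, against 0.782 and 0.705) and another region missed the threshold (-0.109 ± 0.065, adjusted p = 0.14). Of Wnt signalling genes 2 of 4 regions were lower (median -0.157): Axin2, a Wnt target, by -0.467, and the coreceptor gene Lrp5 by -0.211, whereas neither region of Tcf7l2, the transcription factor of the pathway, passed the test. The goblet cell and mucus list had 4 of 7 lower (median -0.20), with the mucin genes Muc13 and Muc1 and the mucin glycosyltransferase gene Galnt12 lower by -0.415, -0.367 and -0.357. Of fetal and regenerative genes 4 of 5 were lower (median -0.215). Igf2bp2, an RNA-binding protein gene, was lower by -0.569, and Tead1, a Hippo pathway transcription factor, was little changed. Some of these calls rest on single samples. Without replicate 2 at 15 weeks the calls at Lrp5 (adjusted p = 0.052), Prom1 (0.092), a second Muc13 region (0.16) and a Ly6e region (0.068) were lost. Without replicate 1 at 3 weeks that at Prom1 was lost (0.072), and without replicate 2 at 3 weeks that at Muc13 (0.10).

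Other lists gave single values or small counts, again to be read beside 69.5% lower in the whole table. Smad1, of BMP signalling, was lower by -0.440 ± 0.056 (adjusted p = 2e-06), and Jag1, a Notch ligand, by -0.20 ± 0.071 (adjusted p = 0.017). Of absorptive cell genes the region at the adhesion gene Ceacam1 was lower by -0.358 and that at Prdm1, which encodes the repressor Blimp1, was little changed. Of tight junction, adhesion and barrier genes 2 of 3 were lower, at the integrin gene Itga6 (-0.229) and the polarity gene Pard3 (-0.171). The lipid, bile acid and nuclear receptor list had 7 of 11 lower (median -0.253), with the fatty acid elongase gene Elovl5 lower at both of its regions (-0.388 and -0.325), while the nuclear receptor gene Pparg was little changed. No list had a region that rose, beside 1% higher in the whole table. Among markers of other cells, 0 of 33 immune cell markers had a region, and the stromal and endothelial list had 3, all lower: Pecam1 (0.400 and 0.364 at 15 weeks, against 0.738 and 0.701), Vwf (0.0736 and 0.151, against 0.329 and 0.269) and Acta2 (0.217 and 0.285, against 0.504 and 0.360). Calls at Jag1 (adjusted p = 0.079), Vwf (0.13) and Acta2 (0.11) were lost without replicate 1 at 15 weeks, and at Jag1 (0.096), Vwf (0.11) and Acta2 (0.21) also without replicate 1 at 3 weeks. That at Pard3 was lost without replicate 2 at 15 weeks (0.11) or at 3 weeks (0.053). What share of cells in each sample was not epithelial, and its part in the results, was not tested.

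**Figure D4:**
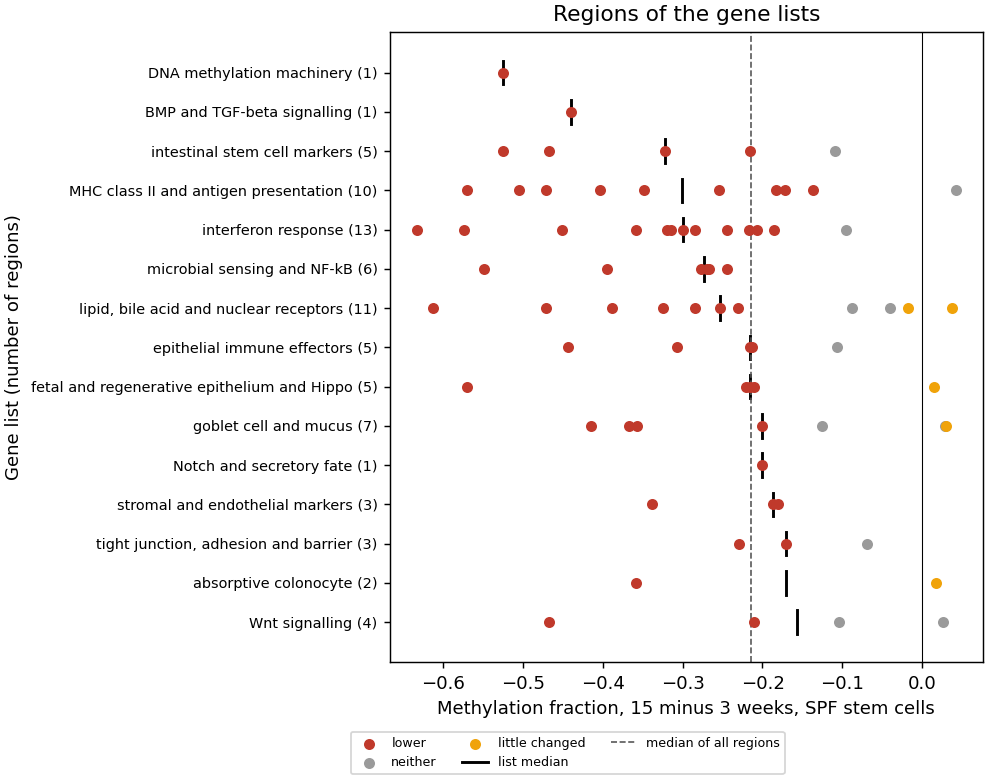
Difference in methylation fraction between 15 and 3 weeks in SPF stem cells for each region on 15 gene lists, coloured by class, with the list median as a black bar and the median of all regions as a dashed line. The interferon and MHC class II medians lie at -0.299 and -0.301, left of the -0.215 of all regions. No region on a list rose past the threshold, beside 1% in the whole table. The medians take no account of the level at 3 weeks.

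The 12 regions that rose were moderate in size, started low and were unrelated by name. The largest, chr1:86482401-86482586, in no gene and 8.4 kb from the pseudogene Rpl30-ps6, stood at 0.428 and 0.418 in the 15-week samples, against 0.215 and 0.0866 in the 3-week samples (0.272 ± 0.082, adjusted p = 0.0066). Mboat2, a phospholipid acyltransferase gene (chr12:24891070-24891563), stood at 0.325 and 0.398, against 0.184 and 0.0667 (0.237 ± 0.075, adjusted p = 0.0085). At both, the 3-week samples lay further apart than the 15-week samples. The gain with the lowest adjusted p was at Cacna1a, a calcium channel gene (chr8:84570023-84570412), at 0.45 and 0.507, against 0.242 and 0.272 (0.221 ± 0.045, adjusted p = 0.00025). Ezr, which encodes ezrin, the linker between microvillar membrane and actin (chr17:6772090-6773202), stood at 0.499 and 0.479, against 0.333 and 0.303 (0.171 ± 0.045, adjusted p = 0.0023).

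The other gains ran from 0.154 to 0.231. Impa2, an inositol phosphatase gene, stood at 0.484 and 0.410 at 15 weeks, against 0.229 and 0.264 at 3 weeks. The region chr2:32514165-32514581, 20.8 kb from Fam102a, stood at 0.605 and 0.544, against 0.430 and 0.256. Map7, a microtubule-associated protein gene, stood at 0.453 and 0.278, against 0.206 and 0.166. At none of the 12, called on these same values, did the samples of the 2 ages overlap. Of all regions, 4.52% had both 15-week samples above both 3-week samples. The remaining gains were at Gm20388 (0.168), Tanc1, a synaptic scaffold gene (0.182), the region shared by Higd1c and Methig1 (0.183), the semaphorin gene Sema6d (0.155) and Sh3rf1, a scaffold of JNK signalling (0.154). The calls rest on few samples: leaving out 1 SPF stem sample at a time gave 5 to 9 higher regions, namely 7 when replicate 1 at 15 weeks and 5 when replicate 2 at 3 weeks was omitted. Of the 12, only Cacna1a and Ezr were called in each of these fits.

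At the 8 little changed regions with the smallest differences and a 3-week mean of at least 0.2, both ages gave nearly the same values. Tubb5, a beta-tubulin gene (chr17:35835489-35835955), stood at 0.561 and 0.556 in the 15-week samples, against 0.548 and 0.560 in the 3-week samples, with a 95% interval of -0.120 to 0.129. Ckap4, a membrane protein of the endoplasmic reticulum (chr10:84532834-84533197), stood at 0.580 and 0.587, against 0.589 and 0.580. Rmi1 with Hnrnpk, genes of DNA repair and of RNA binding, stood at 0.537 and 0.530, against 0.583 and 0.481. In these the spread between replicates exceeded the difference between ages. The others were Lypd6, of the Ly6 family (0.446 and 0.498, against 0.520 and 0.423), the aminopeptidase gene Npepps (0.400 and 0.335, against 0.324 and 0.401), the zinc transporter gene Slc39a11 (0.470 and 0.413, against 0.535 and 0.360), a region 9.6 kb from the kinase gene Rps6ka1 (0.244 and 0.208, against 0.257 and 0.201) and one 34.1 kb from the non-coding gene Gm40948 (0.337 and 0.327, against 0.420 and 0.232). The 53 little changed regions had a median of 0.442 at 15 weeks and 0.456 at 3 weeks, so most were neither empty nor full. With 1 SPF stem sample left out the intervals widen, and 9 to 17 regions met the limit.

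In GF stem cells the same regions moved less and in both directions. The regions are assumed to have been selected as lower in SPF than in GF stem cells at 15 weeks. How losses and gains are shared between SPF and GF is therefore not independent of that choice. Limma called 161 regions lower (13.5%) and 103 higher (8.62%) at 15 than at 3 weeks. All 161 are among the 831 of SPF stem cells (19.4% of those), and there the median change was -0.405 for SPF and -0.197 for GF. At the 664 regions lower in SPF stem cells and not called in GF, the medians were -0.252 in SPF and -0.025 in GF. Cnn3 was among the shared losses, with a change of -0.594 for SPF and -0.521 for GF, and the difference between these changes did not pass the test (-0.072 ± 0.074, adjusted p = 0.38). All 12 regions that rose in SPF also rose in GF stem cells, by a median of 0.182 in SPF and 0.319 in GF, and at all but 3 of them (Cacna1a, Map7 and Gm20388) the changes were not called different. Of the 53 regions little changed in SPF, 25 rose in GF stem cells, with a GF median change of 0.137. They include Ckap4 (0.267 ± 0.061 in GF), Slc39a11 (0.220 ± 0.054) and Npepps (0.145 ± 0.044).

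**Figure D5:**
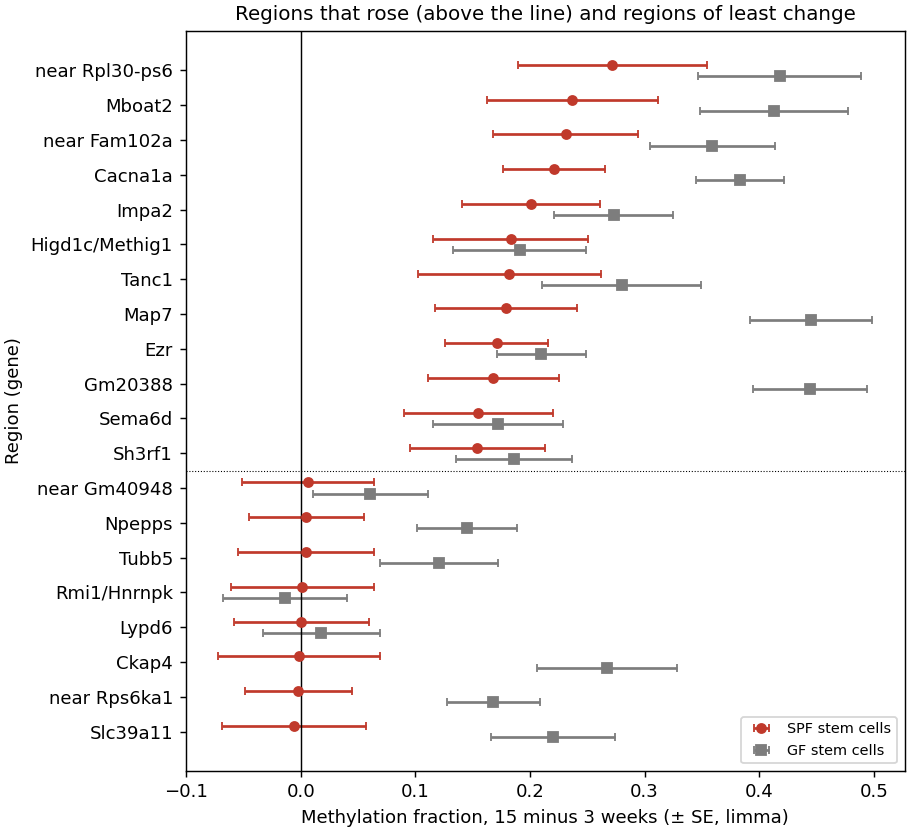
Change in methylation fraction from 15 minus 3 weeks in SPF stem cells (red circles) and GF stem cells (grey squares), with limma SEs as bars, for the 12 regions that rose in SPF and, under the dotted line, the 8 of least change. All 12 changes are positive in both kinds of mice, and for Map7 and Gm20388 the GF changes are 0.445 and 0.444.

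The change with age was tested against that of GF stem cells directly. It was more negative in SPF at 651 regions (54.5%) and less negative at 0 (0 also at an unadjusted p under 0.05). The 15-week libraries on which the selection is assumed to rest enter this contrast, so its one direction is not independent of that choice. The count was 410 when replicate 2 at 15 weeks in SPF was omitted. Of the 831 lower regions 575 were among the 651, as were 17 of the 53 little changed ones.

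At 6 regions the direction was opposite, with a loss in SPF and a gain in GF stem cells, both called. Otulin with Ank (chr15:27553523-27554062), genes of a deubiquitinase of inflammatory signalling and a pyrophosphate transporter, stood at 0.478 and 0.424 in SPF at 15 weeks, against 0.712 and 0.731 at 3 weeks. Its change was -0.270 ± 0.044 for SPF, against 0.143 ± 0.038 for GF. Mta3, a subunit of a chromatin remodelling complex (chr17:83708311-83709174), stood at 0.402 and 0.398, against 0.622 and 0.617 in SPF, with changes of -0.220 in SPF and 0.154 in GF. The rest were a Ptprj enhancer-like region (-0.158 in SPF, 0.193 in GF), Zfhx3, a transcription factor gene (-0.141 and 0.158), and 2 regions in no gene, chr9:50470207-50471632 near Plet1 (-0.166 and 0.162) and chr16:78249170-78249557 (-0.161 and 0.142). Only the Otulin and Mta3 losses in SPF were called without each SPF stem sample in turn. Without replicate 2 at 15 weeks Ptprj (adjusted p = 0.095), Zfhx3 (0.11) and the chromosome 9 region (0.052) were not called. Without replicate 1 at 3 weeks Ptprj (0.22) and Zfhx3 (0.086) were not. Without replicate 2 at 3 weeks Zfhx3 (0.062) and the chromosome 16 region (0.10) were not, and without replicate 1 at 15 weeks Ptprj (0.056) was not.

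SPF differentiated cells changed in much the same way as SPF stem cells. In them 863 regions were lower (72.2%) and 11 higher (0.921%), which took in 773 of the 831 losses of stem cells and 6 of the 12 gains. The test of the difference between the changes of stem and differentiated cells called 0 regions (0%), with 54 at an unadjusted p under 0.05. The SE of that difference leaves room for unequal changes at single regions, and the 3-week stem and differentiated samples share identifiers, so they are taken to come from the same animals. Irf1 changed by -0.632 in stem and -0.637 in differentiated cells, and Hsd17b4 by -0.612 and -0.626. Among the gains, Ezr changed by 0.171 in stem and 0.051 ± 0.045 in differentiated cells, where it was not called (adjusted p = 0.32).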

How the data were processed

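DNA from stem and differentiated fractions of colon was bisulfite treated (EZ DNA Methylation-Direct) and made into xGen Methyl-Seq libraries, per the labels' protocols. The authors aligned reads with BSMAP 2.90 to mm10, per the submitters' processing notes. How regions were called, tested and filtered on coverage is not stated in the labels or headers. The deposited values are methylation fractions of each region in each sample, per the file headers. A region also carries the authors' deposited p-value, difference and number of CpGs (10 to 49), which enter no test here except as a limit on CpG number. Coordinates are printed as deposited, and whether they count from 0 or 1 is not stated. Depth is unknown, so a single fraction has no interval.

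The linear model was limma 3.58.1 in R 4.3.3, on fractions from all 20 samples in 8 groups, since the compared groups hold 2 samples each, with Benjamini-Hochberg adjustment over 1195 regions and a threshold of 0.05. Contrasts were 15 minus 3 weeks in SPF stem cells, and that change minus the change in GF stem or SPF differentiated cells. Sample means were compared by an exact permutation test (scipy 1.17.1). The fit was tested on simulated data. P-values measure only the spread among the samples at hand, in which sex and replicate coincide. Neither SPF stem replicate pair had a value exactly equal at any region, compared at the precision of the deposited table and not as rounded here (0 of 1195). Replicate numbers do not mark a shared animal or batch across ages, and same-numbered samples did not deviate together (r = 0.0528).

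Regions described are the 12 largest losses, all gains, the 8 smallest changes, genes with 4 or more regions, regions with opposite changes in GF cells, and up to 4 regions for each of 16 gene lists. Groups of neighbouring regions and the promoter windows were chosen after values were seen. The regions, lists and rules were chosen with earlier results of these data known. The planned motif search inside regions was not run, as no genome was used here. Of 666 gene symbols 657 matched a RefSeq symbol or synonym. Alternatives were the logit scale, a replicate block, other sets of samples, a random identifier block, robust shrinkage, limits on CpG number, size and p, and each replicate left out. The values of 1 listed region are not reported here.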

Additional observations from a re-analysis of the deposited data

Results flagged for a closer look

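By the limma test of the difference itself, 651 regions changed differently with age in SPF than in GF stem cells. Values are given here for those among the largest losses, the gains, the smallest changes and the opposite changes. Each is the SPF change minus the GF change in methylation fraction, with its adjusted p. Among the largest SPF losses it was -0.654 at Hsd17b4 (3.7e-07), -0.648 at Eml2 (6.5e-07), -0.525 at Irf1 (1.1e-05), -0.519 at Tmc5 (4.8e-05) and -0.424 and -0.351 at the pair in Lncpint (4.8e-05 and 0.00018). It was -0.334 near Gtsf1l (0.0015), -0.326 at Ptprt (0.0037), -0.261 at Dlgap1 (0.038), -0.247 in the chromosome 15 group (0.019) and -0.238 at Kcne3 (0.01). In GF stem cells the changes at Hsd17b4 and Eml2 were 0.0422 and 0.0287 and were not called (adjusted p = 0.47 and 0.65), while Kcne3 and Dlgap1 fell there too (-0.39 and -0.331).

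Among regions that rose in SPF, the gain was smaller than in GF stem cells at Gm20388 (-0.276, 0.008), Map7 (-0.266, 0.013) and Cacna1a (-0.162, 0.028). Among regions that changed little in SPF the difference was -0.268 at Ckap4 (0.025), -0.225 at Slc39a11 (0.029) and -0.170 near Rps6ka1 (0.028), where GF stem cells rose. Where the directions were opposite it was -0.413 at Otulin with Ank (6.4e-05), -0.374 at Mta3 (0.0002), -0.351 at Ptprj (0.0023), -0.328 near Plet1 (0.00072), -0.302 on chromosome 16 (0.0025) and -0.299 at Zfhx3 (0.003). Age groups of 2 SPF samples are too small to look for single samples that stand apart.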

How the results depend on the processing

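Of 1150 comparisons of the 115 named regions with an alternative, 58 lost a call of lower or higher, 8 gained one, and in 38 a little changed region no longer met its limit. The sign changed in 17 of them, at 10 regions that were little changed or not called, and in 0 comparisons of a region called lower or higher. The count of 831 lower regions ranged from 635 (a difference of at least 0.2) to 889 (only the 4 SPF stem samples), and was 39 of the 50 regions with at least 20 CpGs, where the SPF minus GF contrast also called 39, no region was higher (0) and 2 were little changed. Leaving out 1 SPF stem sample gave 700 to 756 lower regions, and 609 of the 831 were called in each of these fits. The 12 higher regions became 19 with SPF samples only, 20 with only the 4 SPF stem samples, 5 at a difference of at least 0.2, 6 at an adjusted p under 0.01 and 5 to 9 with a sample left out. The 53 little changed regions became 105 with SPF samples only, 0 within 0.1, 152 within 0.2 and 9 to 17 with a sample left out. The 651 regions of the SPF minus GF change ranged from 410 to 670 with a sample left out. The other direction, 0 in the fit as reported, gave 0 to 2 with a sample left out (2 when replicate 4 at 15 weeks in GF was omitted) and 2 with only the 15-week GF stem samples of the Co ending, an alternative chosen after seeing the data. The mean change of -0.217 was -0.257 as a difference of medians, -0.255 over regions with at least 20 CpGs and -0.223 to -0.211 with a sample left out. With a replicate block, 842 regions were lower, 14 higher and 58 little changed, 625 differed from GF, and the mean change was -0.217. The causes were not tested. By their design, a limit on CpG number tests fewer regions, among other effects, and leaving out a sample widens intervals.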

Other observations

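The 7 regions on the X chromosome, which the report does not describe, include wide gaps between the male (replicate 1) and female (replicate 2) samples. The region chrX:50537259-50537396 stood at 0.046 and 0.583 in the 15-week samples, against 0.117 and 0.612 in the 3-week samples. Pwwp3b stood at 0.037 and 0.255 at 15 weeks, against 0 and 0.332 at 3 weeks. At both the female sample was higher at each age, and the differences between ages (-0.050 ± 0.288 and -0.020 ± 0.177) were smaller than the spread between replicates. Of the 7 regions 1 (14.3%) was called lower, beside 69.5% in the whole table. The model holds no term for sex, so the gap between male and female samples enters the SE. That SE reached 0.288 here, against a median of 0.0582 over all regions. The region called lower was at Nox1, an epithelial oxidase gene. It stood at 0.556 and 0.728 at 15 weeks, against 0.874 and 0.835 at 3 weeks (-0.213 ± 0.055, adjusted p = 0.0022). That call was lost without replicate 1 at 15 weeks (adjusted p = 0.077). With 1 sample of each sex per age, sex and replicate cannot be told apart.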
